A study of Mus musculus with 28 samples.

Results

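The genes described here encode the proteins of the cytoplasmic ribosome. They were taken as the genes with at least 1 probe set whose platform annotation names that gene alone and whose symbol is of the form Rps or Rpl followed by a number, together with Rpsa and the stalk proteins Rplp0, Rplp1 and Rplp2, while the ribosomal S6 kinases were left out. This gave 48 genes with 100 such probe sets, of 12394 genes with 20393 such probe sets on the array. Rpl5, Rplp1, Rpl10l and Rpl26l1 had no probe set that names them alone and are not members. Among the probe sets past the filter on low values in each experiment, 27 ribosomal protein symbols, such as Rpl3, Rpl9, Rps12, Rps16 and Rps23, were named only together with other genes, so the members do not cover the whole family. Where a member had several such probe sets past the filter on low values, the one with the highest mean stood for it. In this way 46 members were tested in the transduced experiment and 45 in the sorted experiment. The members that the filter left out were Rpl3l and Rps27 in both and Rpl39l in the sorted experiment.

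A ribosome joins a small subunit, which reads the messenger RNA, and a large subunit, which forms the peptide bond and carries a flexible stalk of acidic proteins that recruits translation factors. Most ribosomal protein messages start with a cytosine followed by a run of pyrimidines, the terminal oligopyrimidine (TOP) motif, through which mTOR signalling controls their translation together. A steady message level therefore does not show that the protein output is steady. Loss of 1 copy of several of these genes impairs red cell production in people with Diamond-Blackfan anaemia. A surplus of free Rpl5 and Rpl11 stabilises the tumour suppressor p53. Symbols ending in l or l1 mark paralogs.

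Mouse bone marrow cells were sorted and their RNA was hybridised to 28 Affymetrix arrays, in 2 experiments that the submitters call noncomparable because the RNA was amplified on different days. Levels were not compared between them. The transduced experiment held 3 arrays of granulocyte-macrophage progenitors (GMP) that expressed MLL-AF9, the leukaemia fusion of the histone methyltransferase MLL with the elongation factor AF9, and 3 arrays of GMP that expressed the green fluorescent protein GFP. The sorted experiment held 6 arrays of leukaemic cells (L-GMP; lineage-negative, Sca-1-negative, Kit-positive, Fc receptor-positive, CD34-positive), 5 of a stem cell-enriched fraction (HSC; lineage-negative, Sca-1-positive, Kit-positive), 4 of common myeloid progenitors (CMP; labelled Sca-1-negative, Kit-positive, Fc receptor-positive, CD34-low), 3 of megakaryocyte-erythroid progenitors (MEP; Sca-1-negative, Kit-positive, Fc receptor-negative, CD34-negative) and 4 of normal GMP (as L-GMP, but labelled CD34-high). The L-GMP come from leukaemias that arose from GMP transduced with MLL-AF9, as the series title and what is known of the study give it, so these cells carry the fusion and the normal sorts do not. Age and strain are not given in the labels used here. The labels do not say whether replicates came from different animals. P-values therefore measure only the scatter of these samples, possibly technical. With 3 to 6 arrays a group their number limits the precision. In bulk RNA of this kind, fewer cells of a type and less RNA per cell cannot be told apart.

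Values are log2 intensities after each array was scaled to a common trimmed mean, so a change shared by all RNA is not visible. Values under the 25th percentile of an experiment were set to that floor (5.27 in the sorted, 6.29 in the transduced experiment). The defining markers followed the sort labels: the log2 of the summed intensity of 6 granulocyte-macrophage genes lay between 14.18 and 14.76 in L-GMP, between 10.71 and 12.15 in MEP and between 14.91 and 15.08 in GMP. That of 5 erythroid genes lay between 12.82 and 13.32 in MEP and between 7.72 and 8.15 in GMP, where Epor, Klf1 and Gfi1b were at the floor on every array. Macrophage markers, 5 of 5 measured, summed to between 10.93 and 11.26 in L-GMP and to between 8.98 and 9.14 in GMP. Their part in the differences between these groups was not tested. Arrays of 1 group correlated across genes at 0.937 or more.

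The starts of these genes are shown because the TOP motif is the feature the family is known to share. Of the 48 members, 42 had an entry in the RefSeq promoter table (assembly GRCm38.p6), with 50 start sites in all. None was listed for Rpl7, Rpl8, Rps14, Rps20, Rps29 and Rps4l. Each line gives the 30 bases before the annotated start and the 20 from it, 5′ to 3′ on the strand of the gene. Capitals mark the longest run of at least 5 pyrimidines (C or T) that touches the 5 bases on either side of the start, and a line without capitals has none. Rpl14 to Rpl11 in this order were called among the sorts in the tests below. Of the members measured by a bright probe set that were not, Rplp0 is shown without a run. Rpl38, Rps10 and Rplp2 were chosen because their starts hold the TOP form. Rps27l has 2 annotated starts.
Rpl14 (chr9:120571487-120571536, + strand): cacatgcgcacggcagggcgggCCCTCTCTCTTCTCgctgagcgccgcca
Rps6 (chr4:86857348-86857397, - strand): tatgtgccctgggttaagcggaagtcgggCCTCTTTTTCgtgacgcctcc
Rpl12 (chr2:32961682-32961731, + strand): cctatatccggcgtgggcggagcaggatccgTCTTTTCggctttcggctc
Rps25 (chr9:44407684-44407733, + strand): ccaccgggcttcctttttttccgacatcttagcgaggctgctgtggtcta
Rpl7l1 (chr17:46782637-46782686, - strand): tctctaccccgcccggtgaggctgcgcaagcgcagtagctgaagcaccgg
Rps27l, first start (chr9:66946056-66946105, + strand): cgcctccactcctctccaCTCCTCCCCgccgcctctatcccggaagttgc
Rps27l, second start (chr9:66946383-66946432, + strand): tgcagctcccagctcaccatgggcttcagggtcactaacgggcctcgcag
Rpl11 (chr4:136053374-136053423, - strand): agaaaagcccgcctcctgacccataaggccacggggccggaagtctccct
Rplp0 (chr5:115559437-115559486, + strand): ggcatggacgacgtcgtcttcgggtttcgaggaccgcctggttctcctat
Rpl38 (chr11:114668550-114668599, + strand): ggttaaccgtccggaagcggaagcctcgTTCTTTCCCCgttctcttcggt
Rps10 (chr17:27635225-27635274, - strand): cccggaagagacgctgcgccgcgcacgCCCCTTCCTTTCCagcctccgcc
Rplp2 (chr7:141447621-141447670, + strand): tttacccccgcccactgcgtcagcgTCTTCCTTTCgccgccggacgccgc
A pyrimidine run of 5 or more near the start was present at 27 of the 50 member start sites (54%), against 31.4% of all 32851 start sites of the table and 36% of 75 start sites of mitochondrial ribosomal protein genes. The stricter form, a C exactly at the start followed by at least 4 pyrimidines on the sense strand, was found at 8 of 50 (16%), against 2.51% of all start sites and 0 of 75 mitochondrial ones. It was found in Rpl14, Rpl35, Rpl38, Rplp2, Rps10, Rps18, Rps27 and Rps6. On the opposite strand the shares were 2% and 3.38%. A match describes these letters only, and an annotated start can lie some bases from the start used in these cells.

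Across the 5 sorts most ribosomal protein genes kept almost the same level. The highest group mean exceeded the lowest by a median of 0.17 log2 units over the 45 members, against 0.60 over the 8377 other genes tested, and the median spread between arrays of 1 group was an SD of 0.06 for members and 0.22 for the other genes. The steadiest were Rps20, a small subunit protein, whose group means spanned 0.05 log2 units on the bright probe set that represents it, and Rps29, whose group means spanned 0.11. A dimmer probe set of Rps20 was called lower in L-GMP. Of the 45 members 14, Rps20 and Rps29 among them, were represented by an _x_at probe set and 1 by an _s_at one. These types are marked as cross-hybridising, and their part in the steady levels was not tested. Rps19, the gene most often mutated in Diamond-Blackfan anaemia, spanned 0.14. It measured 12.60, 12.71 and 12.75 (lowest, median and highest) in L-GMP and 12.73, 12.68, 12.72, 12.68 and 12.68 in HSC. It measured 12.80, 12.78, 12.82 and 12.75 in CMP, 12.85, 12.79 and 12.89 in MEP and 12.79, 12.71, 12.76 and 12.63 in GMP, and each of the 5 groups overlapped with at least 1 other. These members also lay near the top of the scale: 36 of the 45 had a mean of 12 or more, where the brightest gene of an array lay between 13.28 and 13.58. The part of this position in their narrow spread was not tested. The 69 other genes at a mean of 12 or more, a split chosen after the values were seen, spanned a median of 0.37 against 0.16 for those 36 members.

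**Figure D1:**
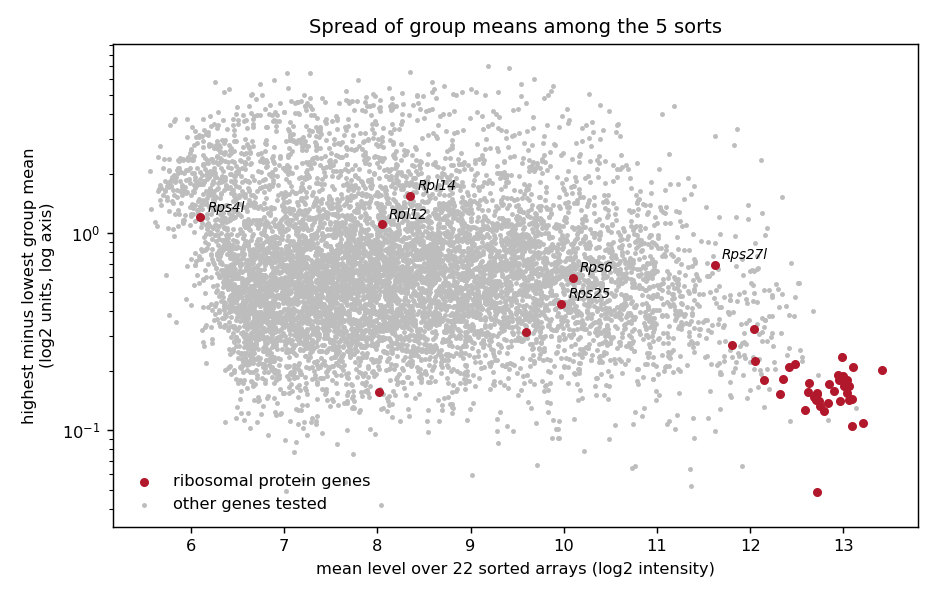
Difference between the highest and the lowest of the 5 group means (log2 units, log axis) against mean level over the 22 sorted arrays (log2 intensity), 1 point a gene, with ribosomal protein genes in red and all other genes tested in grey. Most members sit at a level of 12 or more with group means within about 0.2 of each other, and Rpl14, Rps4l and Rpl12 stand above 1.

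An F test over the 5 sorts (limma's moderated test, Benjamini-Hochberg over all 8422 genes tested, called at an adjusted p under 0.05) called 8 of 45 members, or 17.8%, against 62.5% of all genes: Rpl14, Rps27l, Rps6, Rpl12, Rpl7l1, Rpl11, Rps4l and Rps25. Called were 7 of the 9 members with a mean under 12, against 5214 of the 8308 other genes at that level (62.8%). Of the 36 members with a mean of 12 or more only Rpl11 was called, against 44 of the 69 other genes at that level. The count depends on the fit. The main fit draws every gene's spread toward 1 common value. With a prior that follows the level, used together with limma's robust option, the F test called 29 of 45 members (64.4%), against 63.0% of all genes. Wherever this prior is named below the robust option was also on, and their separate effects were not tested. It called 21 of the 36 members with a mean of 12 or more and 56 of the 69 other genes at that level. These levels are those of the probe set that represents a gene, not of the gene's whole signal. In MLL-AF9 cells the probe sets that name Rps6, Rpl12 and Rpl14 alone averaged 11.15, 9.38 and 9.97. For each gene a probe set shared with other genes averaged 13.32, 13.24 and 12.35 there. The narrow range of the group means does not depend on this choice, whereas whether the small differences pass the test does. Next in order of p, without passing, came Rpl22l1 (adjusted p = 0.0633) and Rpl22 (adjusted p = 0.0658).

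**Figure D2:**
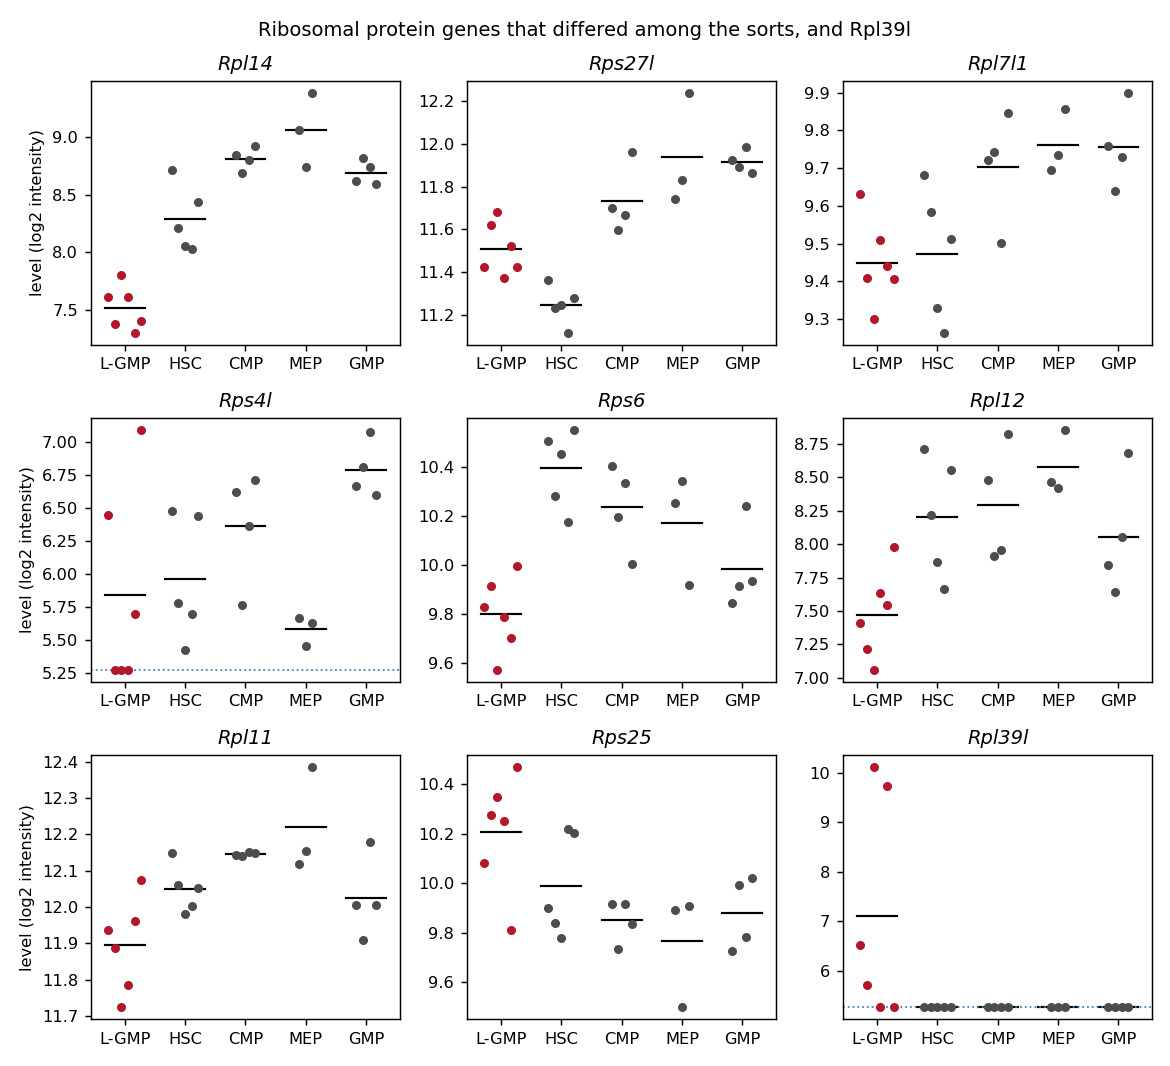
Level (log2 intensity) on each of 22 sorted arrays of the 8 members called by the F test and of Rpl39l, with L-GMP in red, normal sorts in grey, a bar at the group mean and a dotted line at the floor of 5.27. Rpl14 is lowest on the 6 L-GMP arrays, and Rpl39l is above the floor on 4 L-GMP arrays and on none of the 16 others.

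Leukaemic L-GMP were set against normal GMP, which share their sort markers, to ask how the leukaemic cells differ from their normal counterparts. In this comparison 4 of 45 members (8.89%) were called, all lower in L-GMP, against 33.5% of all genes, of which 15.2% were higher and 18.3% lower. The median change of the members was -0.05, against 0.01 over all genes tested, and 39 of 45 members lay within 0.2 log2 units of 0, against 41.8% of all genes. Small subunit members had a median of -0.02 (2 of 21 called) and large subunit members one of -0.07 (2 of 24 called). With the prior that follows the level, 6 members were called, 1 of them higher, against 33.7% of all genes.

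Rpl14, a large subunit protein, changed the most. Its level in L-GMP was 7.30 at the lowest, 7.51 at the median and 7.80 at the highest, against 8.62, 8.82, 8.74 and 8.59 in GMP. No L-GMP array reached the range of GMP, nor that of HSC (8.71, 8.21, 8.05, 8.03 and 8.44), CMP (8.84, 8.69, 8.80 and 8.93) or MEP (9.07, 8.74 and 9.38). The log2 change from GMP was -1.17 ± 0.14 (SE, n = 6 and 4; limma adjusted p = 1.0e-06), a level of 0.443 of that in GMP. Rpl14 was also called lower in L-GMP than in each other normal sort, by -0.77 ± 0.13 against HSC, -1.30 ± 0.14 against CMP and -1.55 ± 0.15 against MEP. The size rests on 1 probe set. The 5 probe sets annotated to Rpl14 together with its pseudogene Rpl14-ps1 had log2 changes between -0.25 and -0.07, and 2 of them were called, both lower.

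Rps27l and Rpl7l1, paralogs of Rps27 and Rpl7, were also lower in L-GMP. Rps27l, in human cells a direct target of p53, measured 11.37 at the lowest, 11.47 at the median and 11.68 at the highest in L-GMP, against 11.92, 11.89, 11.98 and 11.86 in GMP, a log2 change of -0.41 ± 0.10 (limma adjusted p = 0.00256) with no overlap. All 3 of its probe sets were called lower, by -0.41, -0.41 and -0.38. Rpl7l1 measured 9.30, 9.42 and 9.63 (lowest, median and highest) in L-GMP, against 9.76, 9.64, 9.73 and 9.90 in GMP, and fell by 0.31 on the log2 scale (SE 0.09; limma adjusted p = 0.0150). Both of its probe sets were called lower, by -0.31 and -0.56, but without GMP replicate 4 the adjusted p was 0.0618. For both paralogs every probe set that names them alone was lower.

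Rps4l, listed in the RefSeq gene table as a transcribed pseudogene, measured 6.44, 5.27, 5.27, 5.27, 5.69 and 7.09 on the 6 L-GMP arrays, against 6.67, 6.81, 7.08 and 6.60 in GMP. On 3 L-GMP arrays it was at the floor and on 1 it was above every GMP array, so the groups overlapped. The change of -0.95 ± 0.31 (limma adjusted p = 0.0217) depended on the floor: with the floor at the 50th percentile it was -0.04 (adjusted p = 0.750). Without GMP replicate 2, GMP replicate 3 or L-GMP replicate 6 it no longer passed the filter on low values.

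Among the members that were not called, the largest values were those of Rpl12, which lies at the base of the stalk, and of Rps25, a small subunit protein. Rpl12 measured 7.06, 7.48 and 7.98 (lowest, median and highest) in L-GMP, against 7.85, 7.64, 8.05 and 8.68 in GMP, a difference of -0.58 ± 0.24 (limma adjusted p = 0.0650). Rps25 measured 9.81, 10.26 and 10.47 in L-GMP, against 9.73, 9.99, 9.78 and 10.02 in GMP, a difference of 0.32 ± 0.13 (limma adjusted p = 0.0513). Both genes' groups overlapped. Their shared probe sets gave smaller values, 0.00 and 0.04 for Rpl12 and 0.07 for Rps25.

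The stalk proteins and the members best known from disease showed small differences. Rplp0 measured 12.68, 12.75 and 12.78 (lowest, median and highest) in L-GMP, against 12.71, 12.69, 12.81 and 12.76 in GMP, and differed by -0.00 ± 0.06. Rplp2 differed by -0.08 ± 0.06. Rps19 differed by -0.02 ± 0.06, Rpl22 by -0.13 ± 0.07 and its paralog Rpl22l1 by -0.09 ± 0.10. Rpl11, which with Rpl5 binds the p53 inhibitor Mdm2, differed by -0.13 ± 0.08. On the upper side, Rpl39 differed by 0.18 ± 0.09, Rpl27a by 0.15 ± 0.20, Rps24 by 0.05 ± 0.06 and Rps9 by 0.04 ± 0.08. None of the members named in this paragraph was called. From a list of 18 genes mutated in human Diamond-Blackfan anaemia, 10 were tested and 0 were called by limma, against 33.5% of all genes. Of these 10, 0 had an unadjusted p under 0.05, against 3553 of all 8422 genes tested. Their median was -0.00.

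**Figure D3:**
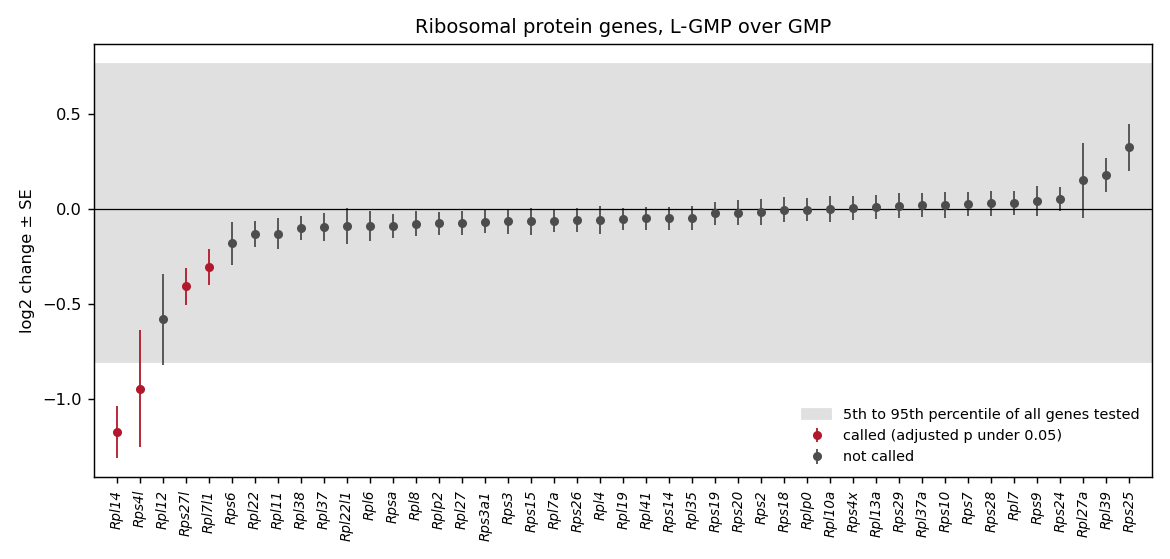
Log2 change ± SE of the 45 ribosomal protein genes tested, L-GMP over GMP (n = 6 and 4 arrays), in order of size, with called members in red and the grey band from the 5th to the 95th percentile of all 8422 genes tested. All members but Rpl14 and Rps4l lie within the band, and 39 lie within 0.2 of 0.

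Different probe sets of 1 gene did not always give the same answer. Rps20 and Rpl41 were represented by a bright probe set with a change of -0.02 and of -0.05, while a dimmer probe set of each was called lower, by -1.15 for Rps20 and -0.71 for Rpl41. The probe set that names Rps6 alone differed by -0.18, and the 9 probe sets that name it with its pseudogene Rps6-ps4 lay between -0.01 and 0.19. Over all kept probe sets that name a ribosomal protein gene together with other genes, which could not be assigned to 1 gene, L-GMP were called higher than GMP for 2 of 96 and lower for 7, with a median of -0.01. No member had probe sets called in opposite directions in this comparison.

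**Figure D4:**
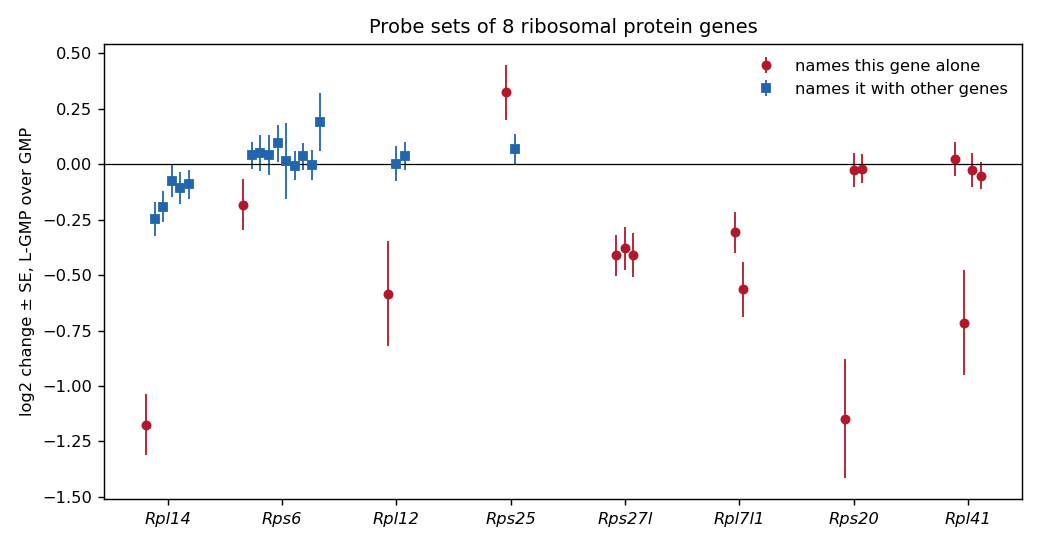
Log2 change ± SE, L-GMP over GMP, of every kept probe set of 8 ribosomal protein genes, as red circles where the annotation names the gene alone and blue squares where it names it with other genes, most often a pseudogene. The single-gene probe sets of Rpl14 and Rpl12 lie below their shared ones, the 3 probe sets of Rps27l lie close together, and both of Rpl7l1 lie below 0.

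Rpl39l, the paralog of Rpl39 that in mouse is known mainly from male germ cells, was at the floor of 5.27 on all 16 arrays of normal sorted cells and varied widely among the leukaemic samples. It measured 6.52, 5.71, 10.11, 5.27, 9.72 and 5.27 on L-GMP replicates 1 to 6, so 2 L-GMP arrays were far above the floor, 2 slightly above it and 2 at it. It did not pass the filter, which asks for a level above the median on at least 3 arrays. Without the filter the difference from GMP was 1.83 on the log2 scale with a limma adjusted p of 0.101. Rpl39 itself measured 12.24 ± 0.19 in L-GMP and 12.06 ± 0.05 in GMP (SD, n = 6 and 4). In the transduced experiment Rpl39l was above the floor on every array, at 8.84, 8.64 and 9.10 in MLL-AF9 and 9.14, 8.70 and 9.01 in GFP cells, with no call. Rpl3l, a paralog known from heart and skeletal muscle, was at the floor on all 22 sorted arrays. The probe set of Rps27 lay between 5.36 and 5.73 in L-GMP, below every array of the normal sorts except GMP replicate 3 at 5.70. A bright probe set that Rps27 shares with Rps27rt averaged 12.88 in L-GMP and 12.87 in GMP, a difference of 0.01.

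Among the members called against the other normal sorts, more were again lower in L-GMP than higher. Against HSC 5 of 45 members were called (47.2% of all genes, 23.4% higher and 23.8% lower): Rps6, Rpl14, Rpl12 and Rpl22l1 were lower and Rps27l was higher. Against CMP 6 were called (39.9% of all genes, 18.4% higher and 21.5% lower), with Rpl14, Rpl12, Rps6, Rpl7l1 and Rpl11 lower and Rps25 higher. Against MEP 11 were called (45.2% of all genes, 22.3% higher and 22.9% lower), 10 lower and 1, Rps25, higher. The 5 largest falls were those of Rpl14, Rpl12, Rps27l, Rps6 and Rpl11. With the prior that follows the level, the calls were 8 against HSC (47.3% of all genes), 11 against CMP (40.1%) and 27 against MEP (45.6%), of which 26 were lower. These comparisons share the L-GMP arrays and do not count as separate evidence of one another. Leaving out MEP replicate 2 gave 5 calls against MEP, and leaving out MEP replicate 3 gave 6. With the ratio of 3' to 5' control signal as a covariate, 2 members were called against HSC and 7 against MEP.

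Rps6, a small subunit protein that S6 kinases phosphorylate downstream of mTOR, had its lowest group mean in L-GMP and its highest in HSC. It measured 9.57, 9.81 and 9.996 (lowest, median and highest) in L-GMP, against 10.51, 10.28, 10.45, 10.18 and 10.55 in HSC, with no overlap and a log2 change of -0.59 ± 0.11 (limma adjusted p = 9.1e-05). The means of CMP (10.40, 10.20, 10.33 and 10.002) and MEP (10.25, 10.34 and 9.92) lay between those of HSC and GMP (9.84, 9.91, 10.24 and 9.93). All these values of Rps6 rest on the 1 kept probe set that names it alone. Changes of its shared probe sets are given above for L-GMP against GMP only. Rps27l ran the other way between stem and progenitor cells, at 11.36, 11.23, 11.25, 11.12 and 11.28 in HSC, below every array of each other sort, and L-GMP were higher than HSC by 0.26 ± 0.09 (limma adjusted p = 0.0240).

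Rpl12 and Rpl11 were lower in L-GMP than in 3 and 2 of the other sorts. Rpl12 measured 8.72, 8.22, 7.87, 7.66 and 8.56 in HSC, 8.48, 7.91, 7.96 and 8.82 in CMP and 8.46, 8.42 and 8.86 in MEP. Every MEP array was above every L-GMP array, a log2 change of L-GMP from MEP of -1.11 ± 0.26 (limma adjusted p = 0.00138), while the ranges of L-GMP overlapped with those of HSC and CMP (changes of -0.73 ± 0.22 and -0.82 ± 0.24, adjusted p = 0.00966 and 0.00851). Rpl11 measured 11.72, 11.91 and 12.08 (lowest, median and highest) in L-GMP, against 12.14, 12.14, 12.15 and 12.15 in CMP, and fell by 0.25 on the log2 scale (SE 0.08; limma adjusted p = 0.0158). Against MEP (12.12, 12.16 and 12.38) it fell by 0.32 (SE 0.09; limma adjusted p = 0.00425). Rps25 was higher in L-GMP than in CMP by 0.36 ± 0.13 (limma adjusted p = 0.0282) and than in MEP by 0.44 ± 0.14 (limma adjusted p = 0.0125), with overlap in both. Rpl12, Rpl11 and Rps25 each rest on 1 kept probe set that names the gene alone. Probe sets they share with other genes are not given for these comparisons.

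Among the normal sorts, HSC differed from GMP in 7 of 45 members (41.2% of all genes, 19.4% higher and 21.8% lower). Rps27l, at -0.67 ± 0.10 (limma adjusted p = 2.0e-05), Rps4l, Rpl14, Rpl7l1, Rpl22 and Rpl41 were lower in HSC, and Rps6 was higher, by 0.41 ± 0.12 (limma adjusted p = 0.00834). Probe sets of 1 gene did not always agree. Rpl22 was called lower by the probe set that represents it, at -0.19, and higher by a dimmer one, at 1.30. Rpl7l1 and Rpl41 were called by 1 of their probe sets each, and Rps24, represented by an uncalled bright probe set, was called higher by 1 dimmer probe set, at 1.66. With the prior that follows the level 12 members were called (41.5% of all genes). The calls of the main fit fell to between 2 and 4 without HSC replicate 2, 3 or 4 or without GMP replicate 1, 2 or 3. CMP differed from GMP in 0 members by limma (16.8% of all genes, 8.6% higher and 8.18% lower), and with the prior that follows the level the count was also 0 (17.1% of all genes). An unadjusted limma p under 0.05 was found for 0 members, against 2306 of all 8422 genes tested.

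MEP had the highest group mean of the 5 sorts for 39 of 45 members, against 28.5% of all genes, but this order depends on the scaling and on 1 array. Without scaling MEP was highest for 5 members, with quantile normalization for 13, with the array median as the scale for 40, and without MEP replicate 3, whose member median of 12.91 was the highest of the 22 sorted arrays, for 25. The median of the members was 0.08 higher in MEP than in GMP, against 0.05 over all genes, and without scaling it was -0.02. Only Rps4l was called between MEP and GMP, with 5.67, 5.46 and 5.63 in MEP and the GMP values given above, a log2 change of -1.20 ± 0.36 (limma adjusted p = 0.0166). Of all genes 27.5% were called, 11.9% higher and 15.6% lower. The call of Rps4l was lost with the floor at the 10th percentile and where 1 of the 3 arrays named for it above was left out. With the prior that follows the level 8 members were called, 7 of them higher in MEP (27.4% of all genes).

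In the transduced experiment, GMP with the fusion were set against GMP with GFP to ask what MLL-AF9 changes in these cells. Of 46 members 0 were called by limma, against 0.0276% of all genes (0.0138% higher and 0.0138% lower). An unadjusted limma p under 0.05 was found for 1 member, against 739 of all 7235 genes tested. The members' median change was 0.02, the same as over all genes, and 43 of 46 lay within 0.2 of 0, against 62.4% of all genes. With the replicate pair as a block, which the numbers allow here, 126 genes (1.74%) and again 0 members were called. The smallest unadjusted p was that of Rpl27a, a large subunit protein, which measured 9.51, 9.16 and 9.45 in MLL-AF9, against 8.67, 9.04 and 8.90 in GFP cells. Its groups did not overlap, and the difference of 0.50 ± 0.15 had a limma adjusted p of 0.435, or 0.175 with the block. A brighter probe set that Rpl27a shares with other genes averaged 13.37 in MLL-AF9 and 13.33 in GFP cells, a difference of 0.03.

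The largest difference was that of Rpl12, whose arrays varied widely within both groups. It measured 8.65, 9.59 and 9.90 in MLL-AF9, against 7.12, 9.50 and 9.21 in GFP cells, a difference of 0.77 ± 0.64 (limma adjusted p = 0.712). Replicate 1 was the lowest array in both groups. The 2 bright probe sets that Rpl12 shares with other genes differed by 0.04 and 0.00. Rps25 differed by 0.22 ± 0.14, Rpl14 by 0.18 ± 0.17 and Rps6 by 0.16 ± 0.11. At the lower end Rpl39l, Rpl37, Rpl7l1, Rpl11 and Rpl4 differed by between -0.09 and -0.02. A dimmer probe set of Rpl7l1 differed by 0.29 ± 0.12 and one that Rpl11 shares with another gene by 0.26, neither called. The genes that were lower in L-GMP were not called lower in MLL-AF9 cells. Only 1 of all 7235 genes tested was called lower there, so the missing calls say little about these genes. Rpl14 measured 10.26, 10.02 and 9.63 in MLL-AF9, against 9.86, 9.81 and 9.71 in GFP cells. Rps27l measured 13.25, 13.19 and 13.18 in MLL-AF9, against 13.01, 13.13 and 13.04 in GFP cells. The same 5 macrophage markers summed to between 10.66 and 11.67 in MLL-AF9 and to between 11.89 and 12.88 in GFP cells, without overlap, and their part in these differences was not tested. Whether the effect differs between the 2 experiments was not tested, since they are noncomparable.

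**Figure D5:**
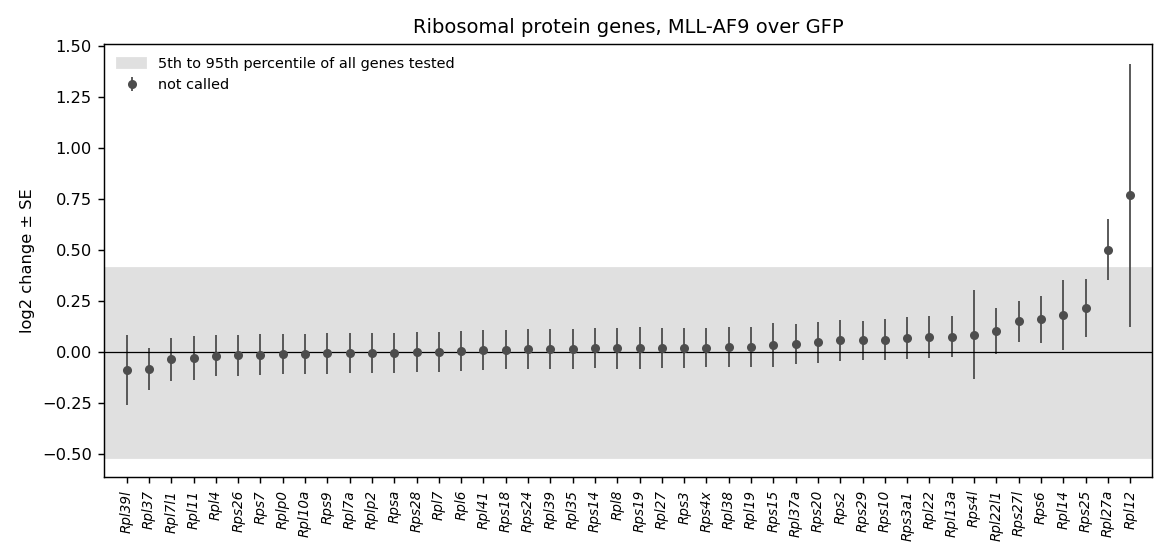
Log2 change ± SE of the 46 ribosomal protein genes tested, MLL-AF9 over GFP (n = 3 arrays each), in order of size, with the grey band from the 5th to the 95th percentile of all 7235 genes tested. Of the members 43 lie within 0.2 of 0, and Rpl27a and Rpl12 lie above the band.

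Other genes of the ribosome pathway were counted from lists chosen with earlier results of these data known, so their direction is no independent evidence. In L-GMP against GMP (33.5% of all genes called), 28 of 45 ribosome biogenesis and RNA polymerase I genes were called, all lower, with a median of -0.54 against 0.01 over all genes. Among them were Gnl3, a nucleolar GTPase (-0.67 ± 0.08), Polr1e, a subunit of RNA polymerase I (-0.85 ± 0.12), Noc4l (-0.93 ± 0.14) and Nip7 (-0.62 ± 0.09), which act in subunit assembly. Of 74 mitochondrial ribosomal proteins, the separate family that serves the mitochondrial ribosome, 31 were lower and 1 was higher, with a median of -0.26. Examples were Mrps2 (-0.75 ± 0.09), Mrps7 (-0.76 ± 0.10), Mrpl47 (-0.89 ± 0.12) and Mrpl11 (-0.62 ± 0.08).

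Among 19 other TOP messages, 5 were called, all lower in L-GMP, against 33.5% of all genes (18.3% lower). The median of the 19 was -0.02, while with quantile normalization 1 was called higher and the median was 0.00. The called ones included Gas5 (-0.47 ± 0.07) and Snhg1 (-0.37 ± 0.10), whose introns hold small nucleolar RNAs. The initiation factor Eif4b (-0.68 ± 0.10) and the nucleolar protein Npm1 (-0.41 ± 0.07) were also among them. Of 18 growth signalling genes 3 were higher and 5 lower, against 15.2% and 18.3% of all genes. Myc, which drives ribosome production, was lower, at -0.97 ± 0.10. The Max partners Mxi1 (1.32 ± 0.17) and Mxd4 (0.79 ± 0.11) were higher, and Mycn, at the floor on every GMP array, was at least 5.93 log2 units higher. In MLL-AF9 against GFP cells 0 genes of any of these lists were called by limma. Genes at an unadjusted p under 0.05 numbered 8 of 45 for ribosome biogenesis, 6 of 74 for mitochondrial ribosomal proteins, 1 of 19 for other TOP messages and 3 of 17 for growth signalling, against 739 of all 7235 genes tested. Their medians were 0.31, 0.12, 0.04 and 0.03 in the same order.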

How the data were processed

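RNA of about 10000 sorted cells per sample was measured on 28 arrays, per the labels. The authors deposited linear intensities per probe set, from MAS5 according to the submitters' processing notes (version not given); between 187 and 413 values of an array were 0 or negative, for reasons not given in the sources used here. Within each experiment arrays were scaled to a common mean after trimming 2% at each end, floored at the 25th percentile and taken to log2. Probe sets above the experiment's median on at least 3 arrays were kept, and each gene was represented by its kept single-gene probe set of highest mean (7235 and 8422 genes). The 6 transduced arrays were fitted alone and the 22 sorted arrays in 1 fit with limma 3.58.1 in R 4.3.3 (lmFit, eBayes, two-sided), with Benjamini-Hochberg adjustment over all genes tested, and scripts were tested on simulated data.

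The members, gene lists and tests were chosen with earlier results of these data known. Genes named with values were those called in MLL-AF9 against GFP or L-GMP against GMP plus the 5 highest and 5 lowest changes, the 5 largest called changes each way elsewhere, the 10 smallest F test p-values, stalk proteins, Rpl11, Rps19, Rpl22 and paralogs, and up to 4 called genes per other list; others named were chosen after their values were seen. Deviations of same-numbered arrays from their group means correlated above 0.1 in 3 of 3 transduced pairs (r from 0.379 to 0.596) and in 18 of 37 sorted pairs, so only the transduced numbers, taken from the sample titles, were treated as pairs. Transduced pairs of different number lay between -0.617 and 0.474, which overlaps with the same-numbered ones, so the pairing is not certain. Alternatives covered scaling, floor, filter, choice of probe sets, the ratio of 3' to 5' control signal as a covariate, the replicate block, the prior spread and leaving out each array.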

Additional observations from a re-analysis of the deposited data

Results flagged for a closer look

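Over the 21 named members of the sorted experiment, 84 groups of 4 to 6 arrays were examined for 1 array far from the others, and 2 had one; chance gives about 1 in 20. Rpl27a measured 8.81 on L-GMP replicate 3, while the other 5 L-GMP arrays lay between 7.67 and 8.07. Rplp0 measured 12.66 on HSC replicate 4, while the other 4 HSC arrays lay between 12.72 and 12.75.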

How the results depend on the processing

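Directions of the named members were checked in MLL-AF9 against GFP and in L-GMP against GMP, and no called one reversed under the alternatives run. In the other comparisons directions were not checked, and in HSC against GMP probe sets of Rpl22 were called in opposite directions. In MLL-AF9 against GFP 0 members were called in every alternative. Numbers of members called follow. With the mean of a gene's kept probe sets, the count was 7 in place of 4 in L-GMP against GMP, 9 for 5 against HSC, 12 for 6 against CMP, 18 for 11 against MEP, 2 for 0 in CMP against GMP, 4 for 1 in MEP against GMP and 14 for 8 among the 5 sorts. With no filter on low values it was 8 against HSC, 10 against CMP and 28 against MEP in L-GMP, 11 in HSC against GMP, 9 in MEP against GMP and 26 among the 5 sorts. With the prior spread following the level and the robust option on, it was 8, 11 and 27 in L-GMP against HSC, CMP and MEP. In the same setting it was 12 in HSC against GMP, 8 in MEP against GMP and 29 among the 5 sorts. With the ratio of 3' to 5' signal as a covariate it was 2 and 7 in L-GMP against HSC and MEP, 3 in HSC against GMP and 5 among the 5 sorts. The floor at the 50th percentile gave 17 in L-GMP against MEP and 15 among the 5 sorts, and that at the 10th percentile 0 in MEP against GMP. Without scaling, 4 were called in L-GMP against MEP and 3 in HSC against GMP. Without probe sets marked as cross-hybridising, 2 were called in MEP against GMP. Leaving out the first replicates of HSC, CMP and GMP, an alternative chosen after seeing the data, gave 4 in HSC against GMP. The cause of these shifts was not tested.

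The numbers of the sorted arrays share only a number; with the replicate block 7 members were called in L-GMP against MEP and 5 in L-GMP against GMP, where Rpl12 passed (adjusted p = 0.0198). Leaving out 1 array at a time gave 3 to 5 calls in L-GMP against GMP, 4 to 6, 4 to 7 and 5 to 13 against HSC, CMP and MEP, 2 to 7 in HSC against GMP, 0 in CMP against GMP, 0 to 1 in MEP against GMP and 6 to 9 among the 5 sorts. The median change of the members in L-GMP against HSC was -0.0514 without scaling, -0.0534 with quantile normalization and 0.0449 with the array median as scale; in L-GMP against MEP it was -0.0402 without scaling and -0.0512 with quantile normalization; in HSC against GMP it was 0.00374, 0.0274 and -0.0882 under those 3 scalings in that order, and in MEP against GMP -0.021 without scaling.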

Other observations

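Mitochondrial ribosomal proteins and ribosome biogenesis genes also differed among the other sorts. In HSC against GMP, 51 of 74 mitochondrial ribosomal protein genes were called by limma (41.2% of all genes), 49 lower and 2 higher in HSC, with a median log2 change of -0.46; Mrpl33 differed by -0.72 ± 0.07, Mrps36 by -0.95 ± 0.09, Mrpl20 by -0.93 ± 0.11 and Mrpl51 by -0.87 ± 0.11. In the same comparison 24 of 45 biogenesis genes were called, 22 of them lower, among them Rrp12 (-1.34 ± 0.16), Lyar (-1.02 ± 0.13), Bysl (-1.29 ± 0.18) and Nhp2 (-0.71 ± 0.10). In L-GMP against HSC, the mitochondrial family split, with 25 of 74 genes higher and 10 lower in L-GMP, against 23.4% and 23.8% of all genes. Mrpl33 was higher by 0.88 ± 0.06 and Mrpl52 lower, at -0.98 ± 0.10. Of the biogenesis genes, 35 of 45 were lower in L-GMP than in MEP, against 22.9% of all genes, with a median of -0.71. Among them Fbl, which methylates ribosomal RNA, differed by -1.02 ± 0.11. Other TOP messages were called higher in MEP than in GMP for 10 of 19, against 11.9% of all genes, with a median of 0.24, among them Eef2 (0.45 ± 0.12) and Npm1 (0.33 ± 0.08). This count depends on the scaling: without scaling it was 1, with a median of 0.14, while it was 9 with quantile normalization, 8 with the array median as the scale and 7 without MEP replicate 3, settings added after the data were seen.

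The 36 members with a mean of 12 or more correlated with each other over the 22 sorted arrays at a median r of 0.32, between -0.76 and 0.90. The 9 members whose probe set had a mean under 12 did so at a median of -0.00. All points share the arrays' scaling.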
